A study of Sus scrofa with 34 samples.

Results

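The comparison described here set the liver of piglets fed oxidized oil together with a phytogenic feed additive (OO + PFA, 5 pigs) against the liver of piglets fed oxidized oil alone (OO, 6 pigs). The samples were chosen by their diet labels, 11 of the 24 liver libraries and of the 34 libraries of the whole series, and every gene of the count table entered, 25880 in all. The question was what adding PFA did to the liver transcriptome of pigs on the oil diet. Both groups were weaned crossbred pigs that ate their diet freely for 28 days, and both diets held the same rapeseed oil, oxidized by long heating. The OO + PFA diet also held the PFA, a feed additive based on essential oils, among them oregano and caraway oil. The 6 pigs of the control diet (CTR) and the 6 fed PFA without the oxidized oil (PFA) are given only as background. Their feed held far less rapeseed oil and less energy than the oxidized oil diets. In values set against CTR, the amount of oil and its oxidation therefore cannot be told apart. Each diet was fed in 1 pen, so diet and pen cannot be told apart. Each library came from a different pig and is named below by a diet prefix (OP marks OO + PFA, C marks CTR and P marks PFA) and its pig number. A sixth OO + PFA library, of pig OP-77, was left out because the study set it aside for signs of RNA degradation.

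The liver keeps blood glucose steady between meals by making glucose from amino acids, lactate and glycerol. Glucagon and adrenaline raise cyclic AMP (cAMP) in the hepatocyte, which switches on the genes of this pathway within a short time, while insulin after a meal turns them down. Oxidized fat is known in pigs and rodents as a dietary activator of PPAR-alpha, the nuclear receptor that drives fat oxidation.

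The libraries had between 19839171 and 41469893 read pairs on genes in OO and between 21861728 and 31252476 in OO + PFA. After a filter on low counts 13831 genes were tested. Hepatocyte markers summed to between 106267 and 138998 CPM (counts scaled to a common library size) in OO and between 107467 and 138419 in OO + PFA, so both groups held liver tissue by this measure. The share of read pairs on no gene was 7.23% to 10.5% in OO and 9.82% to 12.8% in OO + PFA, the share on mitochondrial genes 12.1% to 21.5% and 11.8% to 15.6%, and the share of the 10 most abundant genes 25.4% to 30.1% and 23.8% to 26.8%. Each of these 3 measures had an adjusted p of 0.083 in an exact permutation test over all relabelings of the 11 libraries (two-sided, 5 measures). The fourth, read pairs on genes, had 0.818. The fifth, the slope of a library's expression on gene GC content, was -0.38 to 0.42 log2 units per 10% GC in OO and 0.041 to 0.49 in OO + PFA, with an adjusted p of 0.398. The part of these measures in the results was not tested. Among the OO libraries 3 of 6 carried the longer of the 2 forms of library title, and in OO + PFA 4 of 5 did. By their Y-linked counts 4 of the 6 OO pigs and 3 of the 5 OO + PFA pigs were male.

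No gene passed an adjusted p of 0.05 in OO + PFA against OO with edgeR's quasi-likelihood test, 0% of the genes tested, and the smallest adjusted p was 0.09. At an unadjusted p under 0.05 there were 1176 genes, of which 556 were higher in OO + PFA, 4.02% of those tested, and 620 were lower, 4.48%. The median GC content was 58.7% in the higher and 49.3% in the lower of these genes, beside 51.3% of all genes tested. Only 78.2%, 78.9% and 79.8% of the genes had a GC value, so these medians leave out the rest. The part of GC content in these sets was not tested. After a correction for GC content in the genes with a GC value, the median log2 fold change described below was 0.79 for immediate early genes and -0.58 for interferon-stimulated genes. DESeq2 on the same counts passed 31 genes at that threshold, 20 higher and 11 lower. Relaxing edgeR's threshold to 0.1, a choice made after the values were seen, took in 15 genes, all 15 of them among the 31 of DESeq2, with 9 higher (0.0651%) and 6 lower (0.0434%). Over all genes tested 6430 were higher and 7401 lower in OO + PFA, and the median log2 fold change was -0.02. Counts of list members given below stand beside these numbers and beside the shares above at an unadjusted p under 0.05. Every OO + PFA pig lay above every OO pig in 46 genes, 0.333% of those tested, and below every OO pig in 61 genes, 0.441%. The values that follow are therefore descriptions of the genes nearest to the threshold, and a gene is called higher or lower by its means without having passed the main test. In bulk liver, a smaller number of cells of a type and less RNA per cell cannot be told apart.

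**Figure D1:**
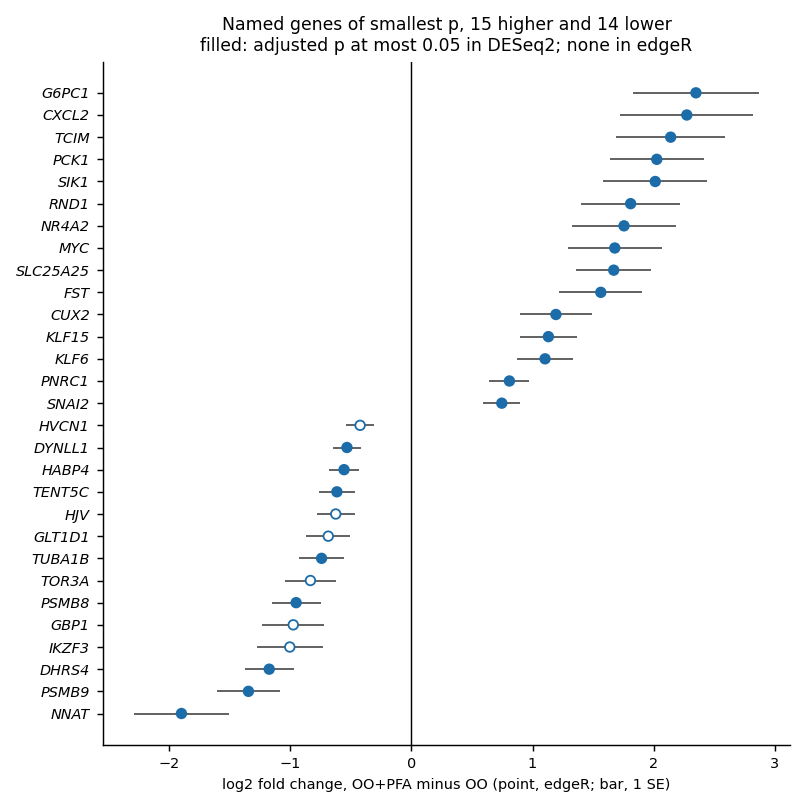
Log2 fold change (x axis, OO + PFA minus OO, edgeR, with 1 SE) of the 15 higher and of 14 of the 15 lower genes of smallest p. Filled points had an adjusted p of at most 0.05 in DESeq2, and none had one in edgeR. All 15 higher genes and 8 of the 14 lower genes are filled, and the higher genes reach larger fold changes than the lower ones.

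The gene of smallest p among those higher with a known place in glucose production was PCK1, cytosolic phosphoenolpyruvate carboxykinase, which commits carbon to gluconeogenesis. In pigs OO-74, OO-88, OO-97, OO-99, OO-102 and OO-130 it was at 318, 487, 309, 369, 729.8 and 454 CPM. In pigs OP-79, OP-98, OP-105, OP-126 and OP-137 it was at 1079.5, 1620.4, 823, 1455 and 4073 CPM. The groups did not overlap, although pig OP-105 exceeded the highest OO pig, OO-102, by little and pig OP-137 stood far above its group. The log2 fold change was 2.03 ± 0.39 (SE), with an adjusted p of 0.0942 in edgeR and 0.000303 in DESeq2, and over the alternatives tried the adjusted p ranged from 0.000303 to 0.804. Without pig OP-137 the log2 fold change was 1.49. Control pigs spanned 184 to 1010.3 CPM and PFA pigs 164 to 412 CPM.

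G6PC1, the catalytic subunit of glucose-6-phosphatase, which releases free glucose from the hepatocyte, showed the same arrangement. The 6 OO pigs were at 213, 478, 195, 162, 289 and 347 CPM in the order above. The 5 OO + PFA pigs were at 557, 926, 738, 1862 and 3065 CPM. Again every OO + PFA pig lay above every OO pig, with pigs OP-126 and OP-137 highest, and the log2 fold change was 2.35 ± 0.52 (adjusted p = 0.121). One control pig reached 1401 CPM, above 3 of the OO + PFA pigs. PCK1 and G6PC1 were the 2 members of the glucose metabolism list with the smallest p and the 2 with groups that did not overlap. The list as a whole did not lean one way. Of its 36 tested genes 20 were higher and 16 lower, with a median log2 fold change of 0.03. At an unadjusted p under 0.05 were 4 and 2 of them, beside 4.02% and 4.48% of all genes.

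SCD, the desaturase that makes oleate, averaged 1751 ± 325 CPM in OO and 1054 ± 438 CPM in OO + PFA (SD, n = 6 and 5), with pigs OP-126 and OP-137 lowest, and its adjusted p was 0.522. INSIG1, a brake on sterol synthesis, was higher in the mean (183 ± 33.8 and 391 ± 275 CPM), and its log2 fold change went from 1.10 to 0.56 without pig OP-137. It was at 219 to 430 CPM in CTR and 155 to 306 CPM in PFA. On a list of 12 insulin- and refeeding-responsive genes written after the values were seen, 7 were higher and 5 lower, with a median of 0.06.

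**Figure D2:**
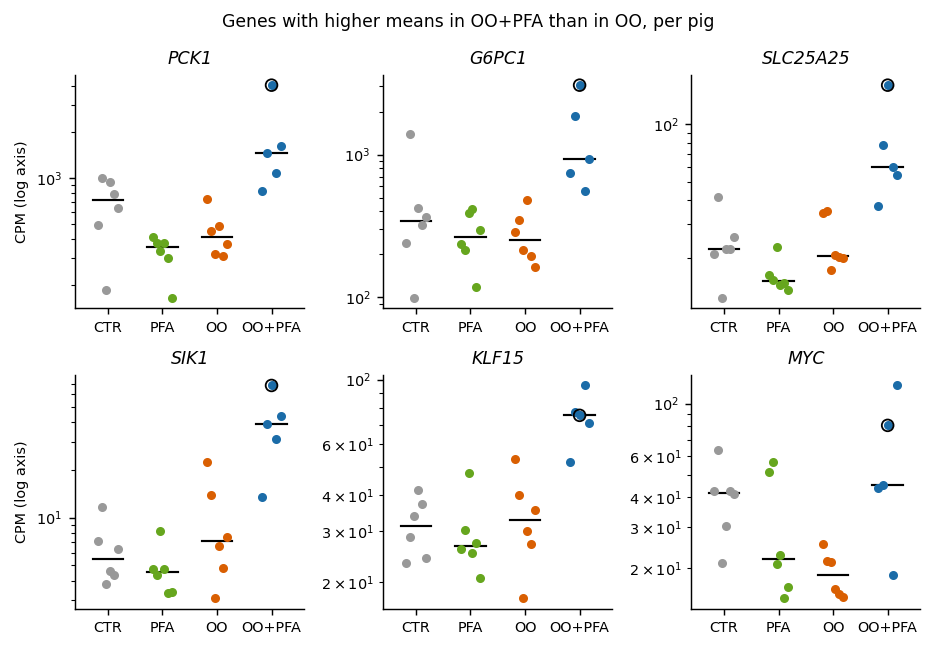
Level of 6 genes in each pig (y axis, CPM on a log axis) by diet (x axis), with the median as a bar and pig OP-137 circled. PCK1, G6PC1 and SLC25A25 separate OO + PFA from OO, while in SIK1, KLF15 and MYC at least 1 pig of each group overlaps the other.

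The promoter of PCK1 is shown because its cAMP response element is the textbook example of control by cAMP and because the gene stood among those of smallest p. The window holds the 250 bases before the RefSeq start of the gene in Sscrofa11.1 (chr17:57930257-57930506, plus strand), with capitals marking the palindromic cAMP response element TGACGTCA, found from 11 to 4 bases before that annotated start. Whether transcription begins at this position was not tested, so the distance to the true start is not known here.
PCK1: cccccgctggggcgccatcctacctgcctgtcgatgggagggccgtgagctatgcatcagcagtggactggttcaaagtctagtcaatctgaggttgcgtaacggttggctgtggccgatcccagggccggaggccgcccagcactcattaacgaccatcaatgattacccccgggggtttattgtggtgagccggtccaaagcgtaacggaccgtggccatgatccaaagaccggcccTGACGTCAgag
The same 8 letters occurred in 289 of 14346 promoter windows of this length, 2.01%, searched on both strands. Among the 15 higher genes of smallest p, 13 had a window, and PCK1 alone held the full element. The shorter motif TGACG, which the full element contains, occurred in 4 of the 13 (PCK1, KLF15, SIK1 and FST) against 21.5% of all windows, and in 4 of the 13 windows of the lower genes.

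The gene of smallest p among all those higher was SLC25A25, a calcium-regulated carrier that exchanges ATP-magnesium for phosphate across the inner mitochondrial membrane. OO pigs had 17.2, 20.7, 20.2, 19.97, 34.5 and 34.9 CPM and OO + PFA pigs 60.1, 54.6, 37.4, 77.7 and 161 CPM. The groups did not overlap, and the log2 fold change was 1.67 ± 0.31 (adjusted p = 0.0942), or 1.23 without pig OP-137. KLF15, a transcription factor that controls amino acid breakdown and gluconeogenesis, was at 17.6, 30.1, 27.0, 35.5, 53.1 and 40.1 CPM in OO and 95.5, 71.1, 51.9, 77.2 and 75.3 CPM in OO + PFA. Only pig OO-102 and pig OP-105 crossed over, and here pig OP-79, not pig OP-137, was the highest (log2 fold change 1.13 ± 0.23, adjusted p = 0.097).

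SIK1, a kinase induced by cAMP that restrains CREB coactivators, was at 3.10, 6.65, 4.82, 7.52, 22.4 and 13.8 CPM in OO and 31.2, 43.5, 13.4, 38.8 and 68.2 CPM in OO + PFA (log2 fold change 2.01 ± 0.43, adjusted p = 0.097). The overlap came from pigs OO-102 and OO-130, the highest of their group, and pig OP-105, the lowest of its own. Without pig OO-102 edgeR called 7 genes at an adjusted p of 0.05, SIK1, KLF15, DHRS4, SLC25A25, CCN1, PCK1 and PSMB9. Without pig OP-105 it also called 7, namely SLC25A25, PCK1, RND1, TCIM, SIK1, KLF6 and a gene without a symbol.

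A list of immediate early genes, which respond to many stimuli within minutes, leaned to higher values. Of its 25 tested members 24 were higher in OO + PFA and 1 lower, 15 at an unadjusted p under 0.05, beside 4.02% of all genes, and the median log2 fold change was 0.94 beside -0.02 over all genes. None passed the adjusted threshold. KLF6 was at 4.74 to 6.42 CPM in OO and 7.32 to 17.9 CPM in OO + PFA with no overlap (adjusted p = 0.097), and FOSL2, a partner in the AP-1 factor, was the other member without overlap (7.75 to 10.7 and 10.9 to 21.8 CPM). NR4A1, an orphan nuclear receptor induced by cAMP, was at 1.02, 1.08, 0.638, 3.08, 4.86 and 1.29 CPM in OO and 4.99, 18.3, 3.33, 4.41 and 27.7 CPM in OO + PFA, and its log2 fold change went from 2.56 to 1.96 without pig OP-137. MYC, the growth regulator, was at 21.2, 16.4, 15.6, 15.2, 25.5 and 21.5 CPM in OO and 18.7, 119, 43.7, 45.3 and 80.8 CPM in OO + PFA, so that pig OP-79 lay within the OO range. Its level was 21.2 to 63.5 CPM in CTR and 14.95 to 56.5 CPM in PFA, so only pigs OP-98 and OP-137 lay above all pigs without the oil. FOSB was nearly silent in OO, with 1 to 12 counts per library, and had 7, 123, 4, 42 and 341 counts in the OO + PFA pigs in their order above. Pigs OP-79 and OP-105 thus had about the counts of OO pigs, and the mean of the group rested on the other pigs. Its log2 fold change went from 4.52 to 3.29 without pig OP-137 and to 5.11 without pig OO-102.

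The OO + PFA pigs were uneven in these genes. Pig OP-137 was the highest of its group in 13 of the 25 immediate early genes and pig OP-98 in 10. As the mean of log2(CPM + 1) over the list, relative to the mean of the OO pigs, pigs OP-79, OP-98, OP-105, OP-126 and OP-137 stood at 0.49, 1.55, 0.13, 0.80 and 1.64. Pig OO-102 stood at 0.67, above pigs OP-79 and OP-105, and control pig C-92 reached 0.87, so high values of these genes were also found outside OO + PFA. Pig OP-98 also gave the outlying value of CXCL2, a neutrophil chemokine, with 8.72 CPM against 1.00 CPM or less in OO, and without it the log2 fold change went from 2.27 to 1.26.

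Genes known to respond to cAMP or fasting in liver were put on a list of 27 after the values were seen. Of 26 tested, 23 were higher and 3 lower, with a median of 0.76, or 0.58 after the GC correction in the 24 with a GC value. Among those higher 15, and among those lower 1, had an unadjusted p under 0.05, beside 4.02% and 4.48% of all genes. The list shares PCK1, G6PC1, SIK1 and the NR4A genes with the lists above. TAT, tyrosine aminotransferase, averaged 787 ± 171 CPM in OO and 1382 ± 526 CPM in OO + PFA with no overlap (509 to 931 and 1036 to 2301), and pig OP-126, not pig OP-137, was highest. IRS2, the insulin receptor substrate of liver, was at 0.718, 2.25, 2.76, 2.61, 8.39 and 13.7 CPM in OO and 12.6, 18.3, 11.8, 16.2 and 14.2 CPM in OO + PFA, so that pig OO-130 alone reached the OO + PFA range, and without it the log2 fold change went from 1.54 to 2.13. IGFBP1, a secreted IGF-binding protein that insulin represses, was at 28.3 to 373 CPM in OO and 162 to 622 CPM in OO + PFA, and its log2 fold change of 1.70 became 0.75 when counts were corrected for GC content and 2.44 without pig OO-97. Other members did not follow. SDS, serine dehydratase, was lower (10.9 ± 5.18 and 4.67 ± 2.41 CPM), FGF21, a hormone of fasting, was at 33.1 ± 16.3 and 33.4 ± 16.7 CPM, and PPARGC1A, the coactivator of gluconeogenic genes, at 24.2 ± 7.03 and 29.5 ± 10.9 CPM. Per pig the list mean lay 0.34 to 1.28 above the OO mean in OO + PFA, from pig OP-105 to pig OP-137, against -0.24 to 0.23 in OO, with no overlap, and the list had been written with these genes' values known.

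In the urea cycle and amino acid breakdown list 24 of 40 genes were higher and 16 lower, with a median of 0.14, or 0.05 after the GC correction. At an unadjusted p under 0.05 were 7 and 1 of them, beside 4.02% and 4.48% of all genes. ARG1, the arginase that ends the urea cycle, was at 262, 263, 355, 203, 214 and 176 CPM in OO and 267, 589, 248, 585 and 418 CPM in OO + PFA (adjusted p = 0.316), with pigs OP-98 and OP-126 highest. In the circadian clock list 15 of 20 genes were higher, with a median of 0.23. Of these 4 had an unadjusted p under 0.05, beside 4.02% of all genes. The list member of smallest p was NFIL3, a repressor of clock output (29.7 ± 9.54 and 53.4 ± 24.3 CPM, adjusted p = 0.303). The growth hormone and IGF list, led by IRS2 and IGFBP1, had 14 of 18 genes higher and a median of 0.12.

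Other higher genes of smallest p had no common list. PNRC1, a nuclear receptor coregulator, was at 16.7 to 25.98 CPM in OO and 26.2 to 41.99 CPM in OO + PFA, and SNAI2, a zinc finger repressor, at 2.34 to 4.23 and 4.29 to 5.88 CPM. Both had groups that did not overlap, and SNAI2 was lower in OO than in CTR (log2 fold change -0.57, adjusted p = 0.0387). TCIM averaged 9.45 ± 3.16 and 41.9 ± 33.9 CPM, FST (follistatin, an inhibitor of activin) 1.497 ± 0.649 and 4.48 ± 1.98, RND1 (a small GTP-binding protein) 5.26 ± 0.908 and 18.4 ± 17.8, and CUX2 4.65 ± 0.607 and 10.7 ± 5.23 CPM. The SD within OO + PFA exceeded that in OO in every one of these 4 genes, and without pig OP-137 the log2 fold change of RND1 went from 1.81 to 1.03. APOA4 and NNMT had large mean differences that 1 pig each carried. APOA4, an apolipoprotein, was at 675 CPM in pig OP-137 and at 16.8 to 47.7 CPM in the other OO + PFA pigs, and without pig OP-137 its log2 fold change went from 2.55 to -0.02. NNMT, nicotinamide N-methyltransferase, was at 576 CPM in pig OP-79, and without it the value went from 1.86 to 0.18.

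Among the genes lower in OO + PFA, DHRS4, a peroxisomal carbonyl reductase that acts on retinal and other carbonyls, had the smallest p of all genes tested. OO pigs had 464, 652, 332, 636, 589 and 1088 CPM. OO + PFA pigs had 234, 298, 270.2, 291 and 295 CPM. No value overlapped, and the OO + PFA pigs differed little among themselves. The log2 fold change was -1.17 ± 0.20 with an adjusted p of 0.09 in edgeR and 0.000227 in DESeq2, and the adjusted p over the alternatives ranged from 0.000227 to 0.332. Control pigs had 46.1 to 66.3 CPM. The oil contrast called the gene in both oil groups, with a log2 fold change against CTR of 3.55 in OO (adjusted p = 1.84e-10) and 2.37 in OO + PFA (adjusted p = 4.82e-07). These contrasts share the control pigs, and the first shares the OO pigs with the comparison described here. DHRS4 has close paralogs, between which the counting could have split reads.

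NNAT, neuronatin, a small membrane proteolipid, was nearly silent without the oil, with at most 0.317 CPM in CTR. OO pigs had 4.27, 9.20, 3.57, 7.48, 7.85 and 11.7 CPM and OO + PFA pigs 1.61, 3.44, 2.23, 1.17 and 1.38 CPM. The lowest OO pig lay just above the highest OO + PFA pig, so the groups did not overlap (log2 fold change -1.90 ± 0.39, adjusted p = 0.097). NNAT belongs to a set of 9 genes that were also measured by RT-qPCR in the same liver samples. How the set was picked is not given in the sources used here, so the common direction of its members is not counted as independent support. Each of the 8 that were tested was lower in OO + PFA, with a median of -0.44. Of these 4 had an unadjusted p under 0.05, beside 4.48% of all genes. PEX11A, which divides peroxisomes, averaged 37.8 ± 8.12 CPM in OO and 26.6 ± 5.46 CPM in OO + PFA, against 15.2 ± 3.44 CPM in CTR. SOD1, cytosolic superoxide dismutase, averaged 660.5 ± 124 and 511 ± 40.7 CPM, and MGLL, monoglyceride lipase, 14.96 ± 4.61 and 10.2 ± 1.44 CPM. CPT1A, which admits fatty acids to the mitochondrion, averaged 223 ± 40.7 and 194 ± 32.3 CPM against 73.4 ± 12.1 CPM in CTR. Its log2 fold change of -0.20 ± 0.15 was close to its error (adjusted p = 0.733), as were those of TXNRD1 (-0.21 ± 0.15), thioredoxin reductase, and FABP3 (-0.31 ± 0.30), a fatty acid-binding protein. HS3ST2, a heparan sulfate sulfotransferase, was at 0.189 to 1.93 CPM in OO and 0.133 to 0.5681 CPM in OO + PFA. CCL26, a chemokine, was left out by the filter, with 1 to 77 counts per OO library and 3 to 23 per OO + PFA library.

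**Figure D3:**
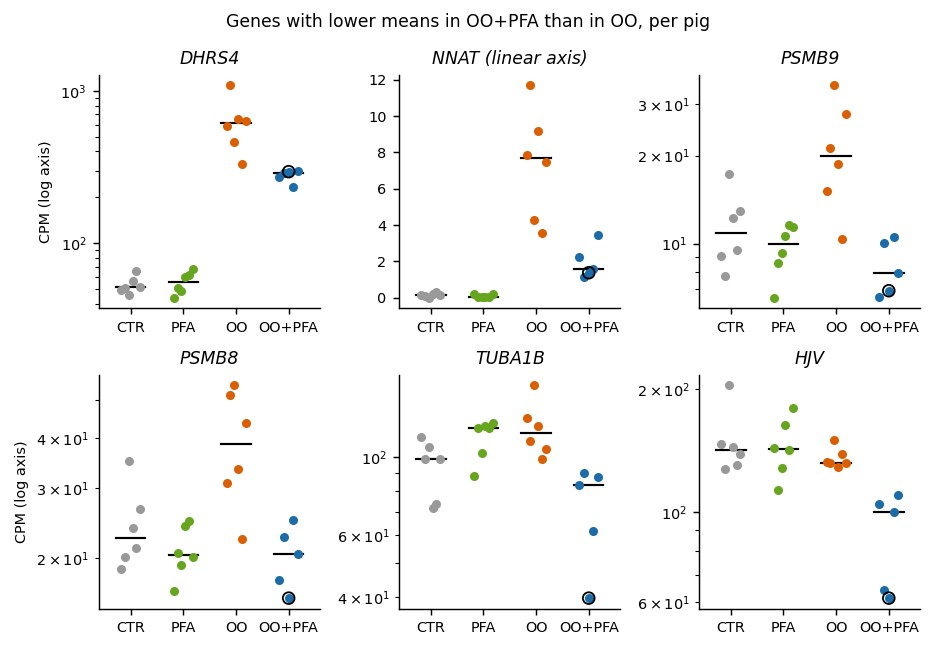
Level of 6 genes in each pig (y axis, CPM on a log axis, linear for NNAT) by diet, with the median as a bar and pig OP-137 circled. DHRS4 and NNAT are high in both oil diets and lower in OO + PFA than in OO, PSMB9 and PSMB8 in OO + PFA lie close to the range of the diets without oil, and TUBA1B and HJV separate OO + PFA from OO.

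The PPAR-alpha target list held 35 tested genes, 7 higher and 28 lower in OO + PFA, of which 8 of those lower and none of those higher had an unadjusted p under 0.05 (beside 4.48% of all genes). Its median log2 fold change was -0.24, while the same list stood at 0.88 in OO against CTR and 0.73 in OO + PFA against CTR. SLC25A20, the carnitine-acylcarnitine carrier, was at 56.8 to 75.6 CPM in OO and 41.1 to 53.1 CPM in OO + PFA, the 1 member with no overlap (adjusted p = 0.4662). ACSL1, the main acyl-CoA synthetase of liver, averaged 2812 ± 378 and 2034 ± 329.9 CPM against 1208 ± 168 CPM in CTR. The mitochondrial beta-oxidation list, which shares several of these genes, had 3 of 22 higher and 19 lower, 3 of them at an unadjusted p under 0.05, with a median of -0.19. The peroxisome list had 11 of 32 higher and 21 lower, with a median of -0.04. At an unadjusted p under 0.05 were 1 of those higher and 5 of those lower, beside 4.02% and 4.48% of all genes. ACOX3, a peroxisomal acyl-CoA oxidase, was on its higher side (21.6 ± 7.33 and 30.9 ± 7.98 CPM). The 8 ketone body genes had a median of -0.06, none of them at an unadjusted p under 0.05.

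A further set of lower genes belonged to antigen processing. PSMB9, a catalytic subunit of the immunoproteasome, which interferon-gamma induces to cut peptides for MHC class I, was at 34.8, 18.7, 10.3, 27.7, 15.2 and 21.3 CPM in OO and 10.5, 7.91, 6.56, 10.04 and 6.90 CPM in OO + PFA. Only pig OO-97 reached the range of the OO + PFA pigs (log2 fold change -1.35 ± 0.26, adjusted p = 0.0942, range over the alternatives 0.000746 to 0.804). PSMB8, its neighbor in the MHC region and partner in the same particle, was at 54.3, 33.5, 22.4, 43.7, 30.9 and 51.4 CPM in OO and 24.9, 20.5, 17.6, 22.7 and 15.9 CPM in OO + PFA. Again pig OO-97 was the only OO pig within the OO + PFA range. Without pig OO-97 edgeR called 3 genes, DHRS4, PSMB9 and PSMB8. Both genes were called higher in OO than in CTR (log2 fold change 0.89 and 0.70, adjusted p = 0.0456 and 0.0474), and the range of CTR was 7.76 to 17.3 CPM for PSMB9. The left-out pig OP-77 had 24.9 CPM of PSMB9, within the OO range, and with it in the fit the log2 fold change was -0.94.

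The promoter of PSMB9 is shown for its interferon-type motif. The window is again the 250 bases before the RefSeq start in Sscrofa11.1 (chr7:25071883-25072132, plus strand), and capitals mark 2 overlapping matches to GAAANNGAAA, the core of an interferon-stimulated response element, from 163 to 154 and from 157 to 148 bases before the start.
PSMB9: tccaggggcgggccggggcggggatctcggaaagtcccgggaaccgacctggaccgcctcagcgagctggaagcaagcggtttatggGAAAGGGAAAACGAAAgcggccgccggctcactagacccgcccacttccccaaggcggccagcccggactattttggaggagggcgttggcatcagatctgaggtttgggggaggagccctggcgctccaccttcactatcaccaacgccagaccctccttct
The motif, searched on both strands, occurred in 370 of 14346 windows, 2.58%. Of the 13 windows of the lower genes of smallest p, PSMB9 alone held it, and of the 13 windows of the higher genes MYC held it.

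The interferon-stimulated list held 39 tested genes, of which 38 were lower in OO + PFA and 1 higher, 19 of those lower at an unadjusted p under 0.05 beside 4.48% of all genes. The median log2 fold change was -0.62, and none passed the adjusted threshold. GBP1, an interferon-induced GTPase, was at 146, 73.5, 57.8, 87.3, 42.3 and 78.2 CPM in OO and 52.6, 34.6, 42.4, 29.4 and 46.9 CPM in OO + PFA, and IRF1, a transcription factor of the same response, at 39.5 to 63.6 and 28.6 to 43.7 CPM. ISG15, a ubiquitin-like modifier, spanned 4.84 to 115 CPM in OO and 5.36 to 14.4 CPM in OO + PFA, and IFIT1, which binds foreign RNA, 23.4 to 143 and 28.1 to 38.8 CPM. Pig OO-99 was the highest OO pig in 24 of the 39 genes, with a list mean of log2(CPM + 1) that lay 0.96 above the OO mean, while pigs OO-88 and OO-102 lay at -0.44 and -0.62, within the OO + PFA range of -0.68 to -0.14. A list of antigen presentation and interferon-gamma genes was written after the values were seen. It shares PSMB8, PSMB9, GBP1 and IRF1, among others, with the list above. Of its 22 genes 20 were lower, with a median of -0.49, and 11 had an unadjusted p under 0.05, beside 4.48% of all genes. TAP1, which carries peptides into the endoplasmic reticulum, was at 20.8 to 39.5 and 16.5 to 23.8 CPM, and the proteasome activator PSME2 at 60.1 to 110.3 and 47.8 to 63.8 CPM.

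Markers of T and natural killer cells moved with these genes. All 11 tested of the list of 14 were lower in the mean in OO + PFA, with a median of -0.80. Of these 7 had an unadjusted p under 0.05, beside 4.48% of all genes. Summed, the markers were at 60.96 to 122 CPM in OO and 42.8 to 73.6 CPM in OO + PFA, and none in the count table was at 0 in all 11 libraries. The list mean of log2(CPM + 1), relative to the OO mean, was -0.84 to -0.27 in OO + PFA. In the pigs without oxidized oil it was -0.77 to 0.26 (CTR) and -0.87 to -0.17 (PFA). GNLY, the cytotoxic granule protein granulysin, was at 8.95 to 30.6 CPM in OO and 7.01 to 8.25 CPM in OO + PFA with no overlap (adjusted p = 0.33). CD2 was at 5.73 to 17.7 and 5.51 to 10.1 CPM, CD3E at 4.99 to 11.9 and 3.85 to 6.72 CPM, and CD4 at 5.95 to 9.24 and 4.91 to 8.55 CPM. IKZF3, a lymphocyte transcription factor and one of the 15 lower genes of smallest p, was at 20.3, 19.9, 14.9, 16.4, 10.4 and 19.1 CPM in OO and 11.2, 5.97, 8.12, 6.75 and 9.78 CPM in OO + PFA. Kupffer cell and macrophage markers summed to 962 to 1421 CPM in OO and 648 to 1745 CPM in OO + PFA, with none of 12 at an unadjusted p under 0.05. B and plasma cell markers summed to 17.6 to 45.8 and 15.4 to 31.0 CPM, with 1 of 9 lower at that p, and neutrophil markers to 4.95 to 21.5 and 3.03 to 20.8 CPM, with none of 5. These lists leaned lower too. All 5 neutrophil markers were lower in the mean, with a median of -0.50. Of the B and plasma cell markers 8 of 9 were lower (median -0.25), and of the macrophage markers 9 of 12 (median -0.08). The part of the lymphocyte markers in the interferon and antigen genes was not tested.

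**Figure D4:**
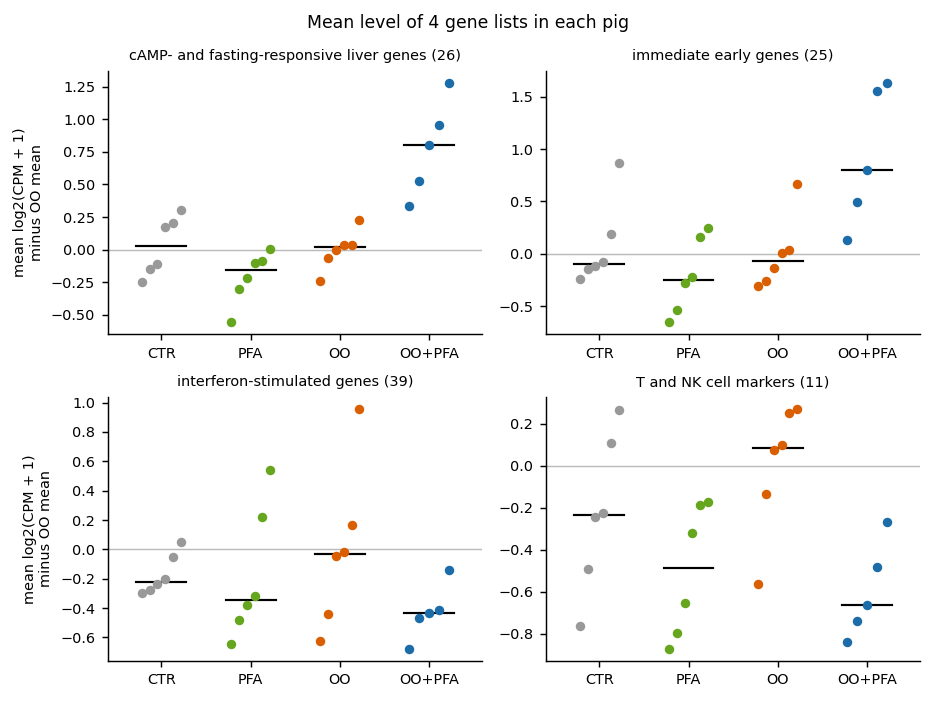
Mean of log2(CPM + 1) over the tested members of 4 gene lists in each pig, minus the mean of the OO pigs (y axis), by diet, with the median as a bar and the number of genes in brackets. The cAMP and fasting list, written after the values were seen, is above all OO pigs in all 5 OO + PFA pigs, and the other lists overlap between OO and OO + PFA.

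Several housekeeping lists leaned lower by small amounts. Of 22 heat shock and chaperone genes 17 were lower, with a median of -0.27. Among those lower 5 had an unadjusted p under 0.05, beside 4.48% of all genes. DNAJB1, a cofactor of Hsp70 (40.6 to 48.5 and 24.4 to 38.3 CPM), and HSPA8, the constitutive Hsp70 (389 to 614 and 236 to 367 CPM), had groups that did not overlap. BAG3, an Hsp70 cochaperone, went the other way (44.9 ± 3.91 and 62.6 ± 8.83 CPM). The proteasome list holds neither PSMB8 nor PSMB9 but holds PSME2, named above with the antigen genes. It had 27 of 29 genes lower, with a median of -0.20. Of these 7 had an unadjusted p under 0.05, beside 4.48% of all genes. The cytosolic ribosome list had 40 of 45 lower with a median of -0.13, and the respiratory chain list 44 of 55 with a median of -0.13. The cell cycle list had 28 of 32 lower with a median of -0.26 and none at that p. Over all genes tested 7401 of 13831 were lower. Splicing and RNA-binding genes leaned the other way, with 23 of 33 higher and a median of 0.11. TUBA1B, an alpha-tubulin with near-identical paralogs, was at 160.1, 123, 99.2, 106, 129 and 112 CPM in OO and 61.7, 87.8, 83.4, 90.5 and 39.8 CPM in OO + PFA with no overlap. DYNLL1, a dynein light chain, averaged 34.1 ± 4.80 and 23.6 ± 2.61 CPM, close to the 22.0 ± 1.99 CPM of CTR in the second group (adjusted p = 0.0988).

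HJV, hemojuvelin, the coreceptor through which the liver senses iron and sets hepcidin, was at 150.4, 129, 139, 131, 133 and 132 CPM in OO and 99.9, 109.8, 104, 64.1 and 61.4 CPM in OO + PFA. The OO pigs were tightly grouped and none overlapped OO + PFA, where pigs OP-126 and OP-137 were lowest (log2 fold change -0.62 ± 0.16, adjusted p = 0.285). Against CTR, OO was -0.13 (adjusted p = 0.645) and OO + PFA -0.76 (adjusted p = 0.0139) on the log2 scale. ID1, a target of the same BMP signal, was at 25.9, 46.4, 19.0, 65.4, 76.4 and 68.0 CPM in OO and 23.5, 13.8, 30.8, 14.2 and 16.4 CPM in OO + PFA, where pigs OO-74 and OO-97 lay within the OO + PFA range. The iron handling list had 16 of 24 genes lower, with a median of -0.12. Of these 4 had an unadjusted p under 0.05, beside 4.48% of all genes. HABP4, an RNA-binding protein, (22.6 to 31.7 and 14.4 to 21.1 CPM), HVCN1, a proton channel (19.4 to 22.4 and 13.8 to 17.8 CPM), and GLT1D1 (4.45 to 6.64 and 2.38 to 4.26 CPM) had groups that did not overlap. TENT5C, an RNA poly(A) polymerase, averaged 23.6 ± 4.59 and 15.4 ± 2.93 CPM, and TOR3A 8.88 ± 2.52 and 4.97 ± 0.938 CPM. LDHB, the heart-type lactate dehydrogenase subunit, was at 19.7, 5.96, 13.4, 11.06, 3.74 and 5.21 CPM in OO and 1.99, 2.97, 2.86, 2.53 and 3.81 CPM in OO + PFA, overlapping only by pig OO-102 and pig OP-137. RXFP1, the relaxin receptor, had 1.16 to 3.14 and 0.340 to 1.07 CPM.

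The lists closest to the oxidative purpose of the oil diet lay near the background. The 28 Nrf2 targets, the antioxidant program, had 13 higher and 15 lower, none and 1 at an unadjusted p under 0.05, and a median of -0.01. The 19 genes of superoxide and peroxide removal had 7 higher and 12 lower and a median of -0.07, and SOD1 was the 1 at that p. The 16 cytochrome P450 genes and regulators had a median of 0.02 with none at that p, and the 27 conjugation and aldehyde enzymes a median of -0.10. The NF-kB and inflammation list had 20 of 33 higher, 3 at that p, with a median of 0.05, and TNFAIP3, its feedback inhibitor, averaged 11.13 ± 1.24 and 15.9 ± 3.605 CPM. Endoplasmic reticulum stress genes had 22 of 31 lower and a median of -0.14, yet their leading members were higher, PPP1R15A, the phosphatase subunit that reopens translation (7.78 ± 1.64 and 14.9 ± 6.27 CPM), and ATF3, a stress transcription factor (8.61 ± 2.86 and 26.6 ± 23.2 CPM). Both are also on the immediate early list.

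Lipid synthesis and secretion lists were mixed. Lipogenesis had 10 of 23 higher and a median of -0.05, cholesterol synthesis and uptake 9 of 24 higher and a median of -0.10, and apolipoproteins 4 of 15 higher and a median of -0.18. In the bile acid list, 10 of 17 genes were higher and the median was 0.03, and CYP7A1, the rate-limiting enzyme of bile acid synthesis, was at 60.97 to 234 CPM in OO and 129.7 to 395 CPM in OO + PFA (adjusted p = 0.487). Acute phase proteins had 15 of 24 higher and a median of 0.06, complement and coagulation factors 12 of 38 higher and a median of -0.06, and collagens and matrix genes 21 of 35 higher and a median of 0.05.

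**Figure D5:**
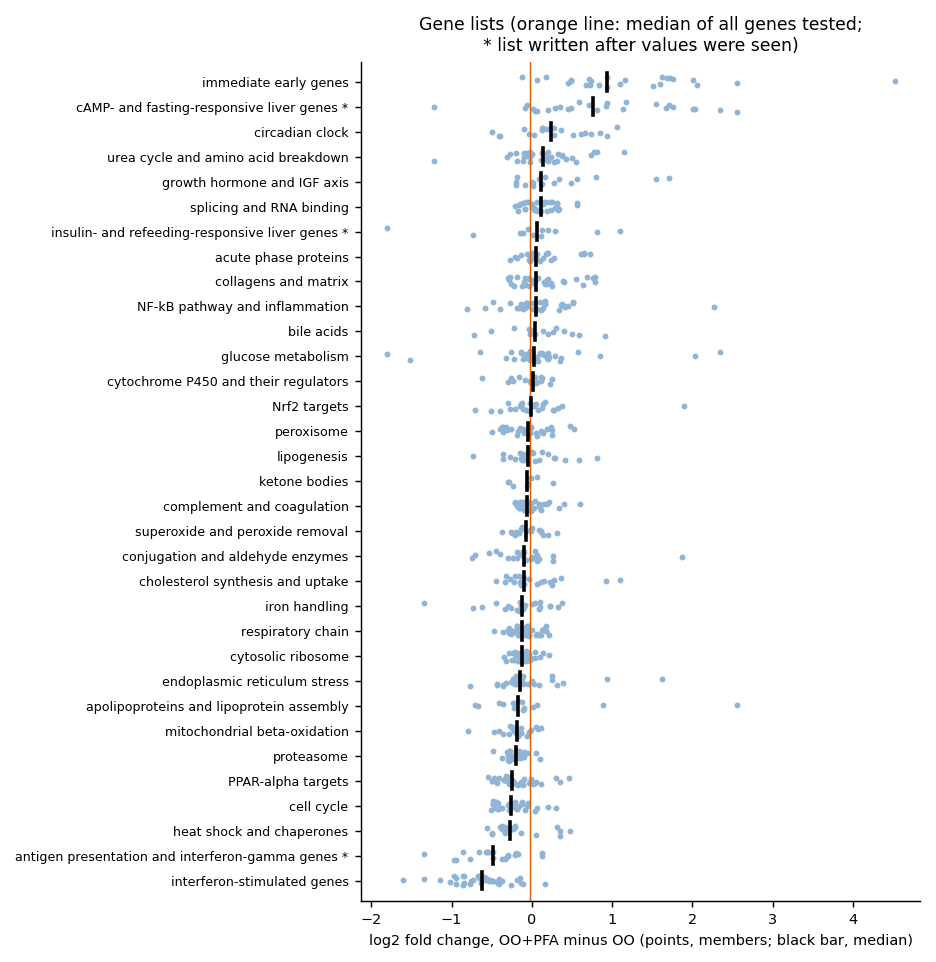
Log2 fold change (x axis, OO + PFA minus OO, edgeR) of every tested member of each gene list other than the cell type markers and the RT-qPCR set (y axis), with the median of each list as a black bar and the median of all genes tested, -0.02, as a line. Immediate early genes and the cAMP and fasting list lie farthest to the right of the lists shown and interferon-stimulated genes farthest to the left, while most of these lists lie within 0.3 of 0.

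The effect of PFA with oil was also set against its effect without oil in the same fit. No gene passed an adjusted p of 0.05 for this difference in edgeR, where 1881 genes had an unadjusted p under 0.05, while DESeq2 called 150. The smallest adjusted p in edgeR was 0.0505, that of PCK1, whose log2 fold change was 2.03 for OO + PFA against OO and -1.05 for PFA against CTR. For G6PC1 these values were 2.35 and -0.77, and for SLC25A25 1.67 and -0.58, with adjusted p for the difference of 0.134 and 0.0979. In DHRS4 they were -1.17 and 0.06 (adjusted p = 0.134), at the far lower level of the diets without oil. Immediate early genes had a median of 0.94 with oil and -0.44 without, interferon-stimulated genes -0.62 and 0.12, and PPAR-alpha targets -0.24 and -0.04. These medians carry no test.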

How the data were processed

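Gene expression was measured by RNA-Seq of poly(A) RNA from liver pieces of 24 piglets on 4 diets, with libraries that keep strand. The authors aligned read pairs to Sscrofa11.1 with STAR 2.6.1d, counted them per Ensembl gene with HTSeq and deposited whole-number counts without normalization. Neither which annotation release was used nor whether counting used strand is given in the sources used here, so it is unknown whether reads of overlapping genes on opposite strands were separated, and reads of near-identical paralogs may be split. The authors' own tests were not used.

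The 23 liver libraries without pig OP-77 were fitted together with diet as the only term in edgeR 4.0.16 (R 4.3.3), as the study's methods fitted the diets together, with TMM scaling, filterByExpr and the quasi-likelihood test, two-sided, adjusted over all 13831 genes after Benjamini and Hochberg and called at 0.05. CPM are counts scaled by these library sizes, an SE is the log2 fold change divided by the root of F, and ± after a mean is the SD over pigs. The 55 pairs of fitted libraries that share a diet all differed by far more than counting error. Python 3.11.15, pandas 2.3.3 and numpy 2.4.6 made the tables, and the fits were tested on simulated counts. Read pairs on no gene were left out of library sizes and amounted to 7.23% to 12.8% of read pairs in the 11 libraries.

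The gene lists and the samples compared were chosen with earlier results of these data known, and 3 lists were added after the values were seen. Named were the 15 genes with a symbol and the smallest p in each direction, the 5 largest changes in each direction at a p under 0.01, the 9 RT-qPCR genes and the 2 members of smallest p in each list. Other genes in the text (among them CCN1, FOSL2, SDS, FGF21, PPARGC1A, IRF1, ISG15, IFIT1, TAP1, HSPA8, BAG3 and the cell type markers) were picked after their values were seen. Some genes that the rule named are not reported here. Symbols came from a gene name table for 14859 of 25880 genes, 2 of them from the study's primer list. Promoter windows and positions came from RefSeq on Sscrofa11.1, matched by symbol, and whether transcription begins at the annotated starts was not tested. The alternatives were DESeq2 1.42.0, other scaling factors and filters, fits of 11 or 24 libraries, terms for title form, sex (read from Y-linked counts) or reads on no gene, a GC correction and leaving out each pig in turn.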

Additional observations from a re-analysis of the deposited data

Results flagged for a closer look

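In 184 checks (92 named genes in the OO and the OO + PFA pigs), 14 single values stood apart from the rest of their group by a large share of the group's range. Chance alone flags about 1 in 20 groups of normally distributed values. That rate need not hold here, because CPM were taken without a log and the genes were picked partly by small p or large fold change. Pig OP-137 gave 4 of them, all above its group, with 4073 CPM of PCK1, 49.2 CPM of RND1, 675 CPM of APOA4 and 876 CPM of INSIG1. Pig OO-97 also gave 4, with 6.64 CPM of GLT1D1 and 373 CPM of IGFBP1 above its group and 182 CPM of RPS18 and 52.8 CPM of PSMB4 below it. Pig OP-126 gave 2, with 51.8 CPM of LPIN1, a phosphatidate phosphatase, and 2301 CPM of TAT. The other values were 8.72 CPM of CXCL2 in pig OP-98, 576 CPM of NNMT in pig OP-79, 0.499 CPM of FOSB in pig OO-102 and 75.7 CPM of SLC25A20 in pig OO-130. Of these genes, PCK1, TAT, SLC25A20 and GLT1D1 had groups that did not overlap, with that pig included.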

How the results depend on the processing

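The count of genes called in OO + PFA against OO was 0 in the main test and 0 with RLE scaling, with no filter, with at least 10 counts in each of the 11 libraries, in a fit of the 11 libraries alone, with a term for title form, sex or read pairs on no gene, and in the libraries of 1 title form alone. DESeq2 called 31 genes (21 at a fold change of at least 2), upper-quartile scaling 1 (1) and the fit of all 24 libraries 1 (1), DHRS4 in both. A GC correction could cover only the 11037 genes with a GC value, 79.8% of those tested. Within these genes 0 were called without and 12 (7) with the correction, and 11 of the 12 were among the 31 of DESeq2. An adjusted p of 0.1, added after the data were seen, gave 15. Leaving out 1 pig at a time gave 0 to 7 genes for both counts, with 7 without pig OO-102, 7 without pig OP-105 and 3 without pig OO-97. The 1176 genes at an unadjusted p under 0.05 became 702 in the libraries of 1 title form and 754 with the term for read pairs on no gene, and 805 to 1857 with 1 pig left out. For the difference of the PFA effect with and without oil, DESeq2 called 150 genes and the title-form term 0. The cause of these differences was not tested. The difference in read pairs on genes turned from -1146318 to 463950 in the libraries of 1 title form, both within the spread.

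Of 2172 values of the 92 named genes under an alternative, 4 changed sign. APOA4 went to -0.30 in the libraries of 1 title form and spanned -0.016 to 2.84 with 1 pig left out, and with pig OP-77 included ATP5MC1 went to 0.024 and RPS18 to 0.034. Of 816 list medians 9 moved by over 1 SD of the list's level between pigs, none of them for immediate early, interferon-stimulated or PPAR-alpha target genes. No paired analysis was possible because the OO and OO + PFA pigs are different animals that share no pig number.

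With 5 and 6 pigs from 1 pen per diet, the p-values measure the spread between pigs within a pen, and genes with few counts per library, such as FOSB, CCL26 and HS3ST2, are limited by depth.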

Other observations

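The library of pig OP-77, left out of every comparison above unless said otherwise, had 18738055 read pairs on genes, with 46.4% on mitochondrial genes and 48.3% in its 10 most abundant genes. Scaled together with the other 23 libraries, it was at 497 CPM of PCK1, 119.7 CPM of G6PC1, 24.4 CPM of SLC25A25 and 11.3 CPM of SIK1, each below all 5 other OO + PFA pigs. The values of PCK1, SLC25A25 and SIK1 lay within the OO range, and that of G6PC1 lay below all OO pigs. The lack of overlap given above for PCK1, G6PC1 and SLC25A25 therefore did not hold with pig OP-77 included. In contrast pig OP-77 had 241 CPM of DHRS4 and 3.29 CPM of NNAT, which lay within the range of the other OO + PFA pigs and below all OO pigs. With this pig included, the log2 fold change was 1.84 for PCK1 and -1.20 for DHRS4.

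Among the genes called by DESeq2, 6 had no symbol. ENSSSCG00000000576 averaged 389 ± 91.3 CPM in OO and 229 ± 48.3 CPM in OO + PFA with no overlap, and ENSSSCG00000039761 averaged 9.81 ± 2.02 and 31.1 ± 29.3 CPM. Their adjusted p in edgeR was 0.097 for each.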
